A study of Mus musculus with 8 samples.

Results

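The synaptic vesicle release machinery is described here as 46 genes chosen by name: synapsins, complexins, synaptotagmins, SNAREs, SV2 proteins, synaptophysins, synaptogyrins, active zone proteins and Rab3 GTPases with their partners. All 46 were found by symbol among the 22337 genes of the deposited table. All 46 also passed the filter on low values, which asked for 1 FPKM in at least 4 libraries. For 3 of them only 1 group reached that level in all 4 of its libraries: saline for Syt2 and Unc13c, and morphine for Syt9. Levels were measured by RNA-seq in the nucleus accumbens, the ventral part of the striatum, of male C57BL/6 mice, an inbred strain. The mice had received saline in 1 group and morphine, an opioid, in the other, and each group had 4 libraries. No other allele or agent is named for either group, and the series title calls the morphine exposure chronic. The labels give no dose, schedule, age or interval before dissection. They also do not say whether each library came from its own animal, so the p-values rest on a spread between libraries that could be technical.

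Neurotransmitter is stored in vesicles that are held in clusters by synapsins, brought to the active zone by Rab3 and RIM proteins, and made ready for fusion by Munc13 proteins. Fusion is driven by a complex of SNARE proteins (synaptobrevin on the vesicle, syntaxin and SNAP-25 on the plasma membrane), which complexin holds and which calcium triggers through synaptotagmin. The ATPase NSF and its SNAP adaptors then take the complex apart. Most inhibitory output neurons of the striatum carry dopamine receptors, and many of these families have paralogs that differ between types of neuron.

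Levels are given as FPKM, the fragments of a gene scaled to transcript length and to library size, which allows levels to be compared between genes. Changes are differences in mean log2(FPKM + 1), morphine minus saline, which understate the change of genes with low levels. The libraries summed to between 480004 and 540104 FPKM and had 12287 to 12655 genes at 1 FPKM or more, and read depth is unknown. Saline replicate 3 stood apart. The summed level of 12 markers of striatal projection neurons was 5015 FPKM in it, 1028 to 1232 in the other saline libraries and 232.6 to 379.9 in the morphine libraries. Of these 12 markers, 9 passed the test as lower with morphine (limma, Benjamini-Hochberg adjustment), among them Drd1 and Adora2a. The sum of 8 cortical glutamatergic markers was 34.3 FPKM in saline replicate 3, 163 to 165 in the other saline libraries and 191 to 243 with morphine, and 0 of the 7 tested passed. Sums of 8 general neuronal markers were 1399 to 1741 FPKM with saline and 1764 to 2089 with morphine, and 0 of 8 passed. Of 3 cholinergic markers, 1 was called lower (sums of 4.44 to 20.1 and 0.55 to 1.05 FPKM), and of 5 endothelial markers 2 were (113 to 130.2 and 80.1 to 93.1 FPKM). Of 6 astrocyte and 6 oligodendrocyte markers 0 passed, and all 12 changes were negative (761 to 1085 and 624 to 841 FPKM, 3086 to 3502 and 1933 to 3078 FPKM). No marker was under 0.1 FPKM in every library. The mitochondrial share of FPKM was 9.09% to 12.6% with saline and 6.1% to 7.94% with morphine. The part of these differences in the results below was not tested, and in bulk tissue fewer cells of a type cannot be told apart from less RNA per cell.

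Of the 46 release genes, Syn1 and Nsf rose and Cplx2 and Syt2 fell with morphine (limma, adjusted p under 0.05 over all 12536 genes tested). These 4 genes are 8.7% of the members, beside 2.52% of all genes tested. By direction, 4.35% of the members rose and 4.35% fell, beside 1.04% and 1.48% of all genes. Without adjustment, 18 members (39.1%) had p under 0.05, beside 20.1% of all genes. In 15 members (32.6%) the groups did not overlap, beside 12.7% of all genes. Of these, 11 were higher with morphine, beside 6.56% of all genes, and 4 were lower, beside 6.1%. Of the 46 changes, 30 were positive (65.2%), beside 52.0% of all genes. The median change was 0.17 for the members and 0.01 for all genes tested. It was 0.0783 for the members without saline replicate 3 and 0.0132 with the mean of the striatal markers as a covariate. Syt2, Unc13c and Syt9 reached the filter level through their higher group. Setting them aside left 43 members, of which 3 (6.98%) were called, 2 higher (4.65%) and 1 lower (2.33%). An unadjusted p under 0.05 in limma was seen in 15 of the 43 (34.9%). In 12 (27.9%) the groups did not overlap. Of these, 10 were higher with morphine (23.3%) and 2 lower (4.65%), beside 6.56% and 6.1% of all genes. Upper-quartile scaling, or removal of the mitochondrial genes, left 1 member called higher and 2 lower, since Nsf no longer passed. The same rescalings changed the split over all genes from 130 higher and 186 lower to 81 and 246, and to 74 and 270.

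The number of members called depended on single libraries, as did the number of all genes called. It was 0 when saline replicate 2 was left out, and 0 when either replicate 3 or 4 of the morphine group was, where 16, 16 and 17 members had an unadjusted p under 0.05 in limma. It was 1 without saline replicate 1, 2 without morphine replicate 1 or morphine replicate 2, 5 without saline replicate 4 and 6 without saline replicate 3. Over all 12536 genes the count was 316 with every library, 0 in the fits where no member passed, and 75 without saline replicate 1. It was 102 without morphine replicate 1, 70 without morphine replicate 2, 450 without saline replicate 4 and 296 without saline replicate 3. Leaving out saline replicate 3 kept Syn1 and Cplx2, lost Syt2 (adjusted p = 0.0564) and Nsf (0.0514), and added Sv2b, Syt13, Syt17 and Unc13c. With the striatal marker mean as a covariate no member passed in limma, and 12 had an unadjusted p under 0.05. Over all genes, 3 passed in that fit and 1255 had an unadjusted p under 0.05 in limma. The changes were then 0.423 for Syn1, 0.265 for Nsf, -0.523 for Cplx2 and -0.726 for Syt2, in a fit whose covariate tracks the groups, since the marker sums did not overlap between them. Of the 15 members whose groups did not overlap, 8 changed sign in that fit: Syt9, Syt13, Syt17, Stx1a, Sv2b, Sv2c, Unc13c and Napb. The same count over all genes was not taken.

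**Figure D1:**
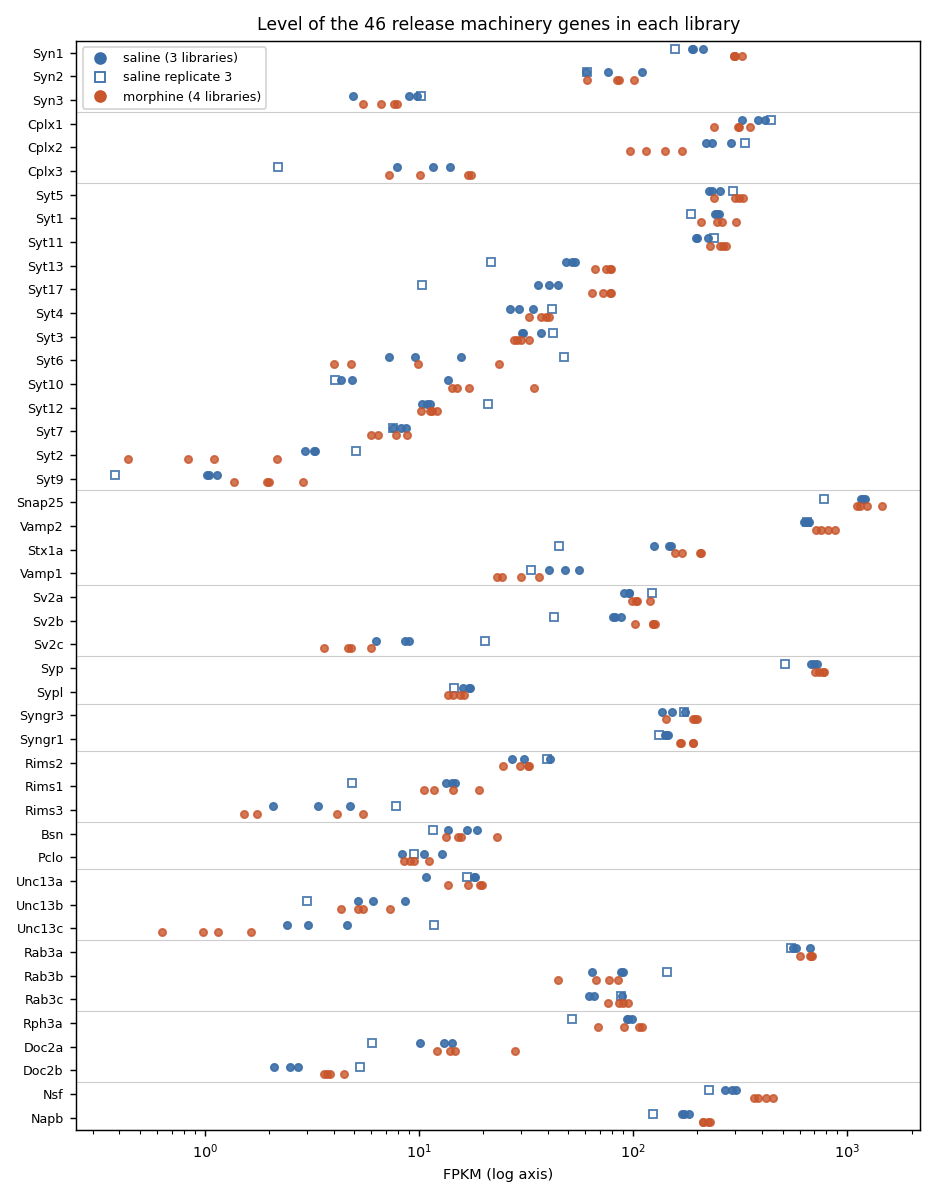
Level of each of the 46 genes in each library (x axis, FPKM on a log axis; 1 point per library, an open square for saline replicate 3), grouped by family. Saline replicate 3 was the lowest of the 8 libraries in 20 members and the highest in 14.

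In 16 of the 46 members some exonic bases overlap another gene, and reads there cannot be told apart without strand; among the 4 genes called, only Syn1 has any, 9 of 3299 bases. The most abundant members were Snap25, Vamp2, Syp, Rab3a, Cplx1 and Nsf. The scarcest was Syt9, at a mean of 1.48 FPKM over 8 libraries. The members together took 1.2% to 1.3% of a library's FPKM with saline and 1.39% to 1.53% with morphine. With mitochondrial genes left out of the total, the groups nearly met, at 1.32% to 1.49% and 1.5% to 1.67%. Saline replicate 3 held the lowest or the highest value of the 8 libraries in 34 of the 46 members (73.9%), beside 40.7% of all genes tested.

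Synapsins coat vesicles and tether them in the reserve pool. Syn1 (ENSMUSG00000037217, GRCm38 chrX:20860511-20921004, minus strand) was at 192, 188, 156 and 211 FPKM in saline replicates 1 to 4. It was at 322, 298, 297 and 296 FPKM in morphine replicates 1 to 4. Every morphine library lay above every saline library, and saline replicate 3 was the lowest. The means were 187 ± 22.8 and 303 ± 12.6 FPKM (SD, n = 4 each). Syn1 rose by 0.70 ± 0.11 on the log2 scale (SE; limma, adjusted p = 0.0207). Without single libraries its adjusted p lay between 0.0133 and 0.0805, and it passed the threshold no longer when saline replicate 2 was left out (0.0686), nor when replicate 3 (0.0805) or replicate 4 (0.0657) of the morphine group was. Syn2, the paralog next in level, was at 60.6 to 111 FPKM with saline and 61.3 to 101 with morphine, and its change was 0.13 (adjusted p = 0.774, limma). Syn3 was at 4.92 to 10.3 and 5.46 to 7.95 FPKM (adjusted p = 0.583, limma), and 1733 of its 12282 exonic bases overlap Timp3. In all 8 libraries Syn1 was above Syn2 and Syn2 above Syn3. Syn1 made up 68.7% ± 5.24 of the summed synapsin FPKM with saline and 77.1% ± 3.77 with morphine (SD, n = 4), and the groups overlapped, at 62.4% to 75.2% and 73.5% to 82.4%.

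The sequences before the start sites of Syn1, Nsf and Syt2 are shown because these members passed the test, in different directions. That of Cplx2 is not shown, since its RefSeq window lies 68793 bases before the GENCODE gene start. They come from RefSeq windows on GRCm38.p6, 5′ to 3′ on the gene's strand, with capitals marking motif matches. The Syn1 stretch is chrX:20921005-20921168 (minus strand), the Nsf stretch chr11:103954057-103954306 (minus strand) and the Syt2 stretch chr1:134646362-134646611 (plus strand). The Syn1 stretch stops where the GENCODE gene begins.
Syn1: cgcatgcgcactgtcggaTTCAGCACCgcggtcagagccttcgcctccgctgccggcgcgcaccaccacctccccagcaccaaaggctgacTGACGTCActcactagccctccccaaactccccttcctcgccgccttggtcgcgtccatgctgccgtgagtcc
Nsf: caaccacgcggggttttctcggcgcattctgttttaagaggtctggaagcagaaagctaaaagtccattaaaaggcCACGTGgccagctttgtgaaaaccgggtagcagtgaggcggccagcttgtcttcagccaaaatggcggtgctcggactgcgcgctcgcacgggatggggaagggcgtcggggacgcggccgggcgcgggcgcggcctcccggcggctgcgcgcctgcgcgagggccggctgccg
Syt2: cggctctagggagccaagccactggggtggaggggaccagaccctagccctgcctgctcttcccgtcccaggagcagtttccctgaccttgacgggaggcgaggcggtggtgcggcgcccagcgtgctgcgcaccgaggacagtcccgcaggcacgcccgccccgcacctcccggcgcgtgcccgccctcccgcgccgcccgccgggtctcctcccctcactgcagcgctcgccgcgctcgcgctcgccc
A window was found for 33 of the 46 members, and motifs were searched on both strands of the 250 bases before each start. Syn1 holds a cAMP response element (TGACGTCA), at -159 to -152 from the RefSeq start. This motif occurred in 1 of the 33 members and in 1.77% of 27025 genes. Syn1 also holds the left arm of the RE1 element bound by the repressor REST (TTCAGCACC), at -232 to -224, found in 1 member and in 0.348% of genes. Nsf holds an E-box (CACGTG) at -174 to -169, found in 5 members and in 6.86% of genes. The Syt2 window held none of the motifs searched, which also included an EGR site (GCGGGGGCG, in 2 members and 2.93% of genes) and a GC box (GGGGCGGGG, in 13 members, 39.4%, and 11.8% of genes). EGR and GC box matches can overlap, as in Syngr1. The median GC content was 61.2% over the 45 member windows and 52.4% over all windows. A match is a description of the letters and does not show binding.

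Complexins clamp and then assist the assembled SNARE complex. Cplx2 (ENSMUSG00000025867, GRCm38 chr13:54371349-54383917, plus strand) was at 235, 286, 333 and 219.6 FPKM in saline replicates 1 to 4. It was at 169, 115, 96.4 and 141 FPKM in morphine replicates 1 to 4. All morphine libraries were below all saline libraries, with saline replicate 3 the highest. Cplx2 fell from 268 ± 51.5 to 130.2 ± 31.7 FPKM (SD, n = 4), a change of -1.05 ± 0.19 (SE; limma, adjusted p = 0.0265). Its adjusted p lay between 0.0225 and 0.0895 when single libraries were left out, and was above 0.05 without saline replicate 1 (0.0524), saline replicate 2 (0.083), morphine replicate 2 (0.0631), morphine replicate 3 (0.0895) or morphine replicate 4 (0.0727). Cplx1, the most abundant complexin, was at 382, 415, 440.3 and 324 FPKM with saline and 309, 313, 239 and 354 FPKM with morphine. Its groups overlapped, through morphine replicate 4 and saline replicate 4, and its change was -0.37 ± 0.14 (adjusted p = 0.192, limma). Cplx3 is better known from the retina and was at 2.19 to 14.0 and 7.25 to 17.5 FPKM, a change of 0.63 (adjusted p = 0.469, limma). The share of Cplx2 in the summed complexin FPKM was 40.0% ± 2.28 with saline and 29.0% ± 3.59 with morphine (SD, n = 4). Its highest morphine value, 34.1%, lay below its lowest saline value, 37.3%. The share of Cplx1 was 58.6% ± 1.68 and 68.1% ± 3.81.

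**Figure D2:**
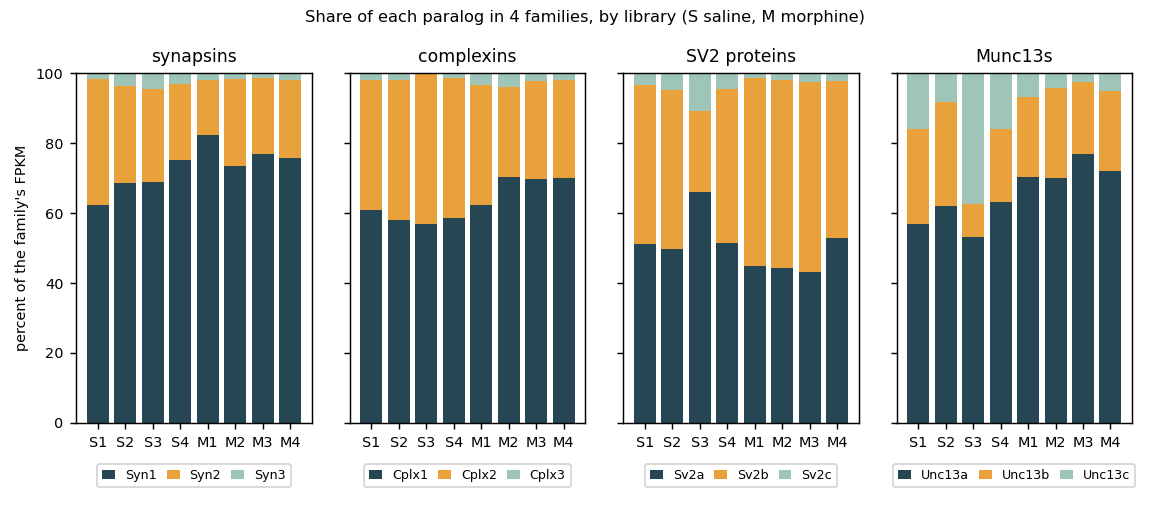
Share of each paralog in the summed FPKM of its family (y axis, percent; 1 bar per library, S saline and M morphine, replicates 1 to 4) for synapsins, complexins, SV2 proteins and Munc13s. Cplx2 took 37.3% to 42.9% of complexin FPKM with saline and 25.8% to 34.1% with morphine, and Unc13c took 37.3% of Munc13 FPKM in saline replicate 3.

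The SNAREs themselves did not pass the test. Snap25, the plasma membrane SNARE with the highest level of all members, was at 1207, 1161, 777 and 1193 FPKM with saline and 1456, 1143, 1118 and 1237 FPKM with morphine. Saline replicate 3 lay far below the other 7 libraries, and the groups overlapped (0.21 ± 0.17, adjusted p = 0.527, limma). Vamp2, the main forebrain synaptobrevin, was at 649.6, 629, 648 and 667 FPKM with saline and 881, 713, 755 and 816 with morphine. These groups did not overlap, but the change of 0.28 ± 0.11 did not pass (adjusted p = 0.176, limma). Its paralog Vamp1, abundant in brainstem and spinal cord, was at 33.4 to 56.1 FPKM with saline and 23.2 to 36.5 with morphine, a change of -0.62 ± 0.18 (adjusted p = 0.0971, limma). Only morphine replicate 2 and saline replicate 3 overlapped. Stx1a, the plasma membrane syntaxin, was described after its values were seen. It was at 147, 150.4, 45.2 and 126 FPKM with saline and 207, 158, 205 and 169.9 with morphine. The groups did not overlap, with saline replicate 3 far below the rest, and the change was 0.79 ± 0.33 (adjusted p = 0.215, limma). It was 0.381 without saline replicate 3 and -0.827 with the striatal covariate.

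Among the genes that recycle SNARE complexes, the members Nsf and Napb were higher in every morphine library than in every saline library. Nsf (ENSMUSG00000034187, GRCm38 chr11:103821782-103954056, minus strand), the ATPase, was at 304, 269.6, 226 and 290.4 FPKM in saline replicates 1 to 4. In morphine replicates 1 to 4 it was at 416, 452, 384 and 366 FPKM. The groups did not overlap, and the lowest value was that of saline replicate 3. Nsf rose from 273 ± 34.0 to 404 ± 38.2 FPKM (SD, n = 4), a change of 0.57 ± 0.12 (SE; limma, adjusted p = 0.0449). It kept an adjusted p under 0.05 only in the fit without saline replicate 4 (0.0472), and lay between 0.0514 and 0.128 in the other 7 fits that left out 1 library. Napb, the neuronal SNAP adaptor, was described after its values were seen, at 124 to 183 FPKM with saline and 212 to 229 with morphine. Its change of 0.44 ± 0.13 did not pass (adjusted p = 0.0911, limma). Outside the members, the SNAP adaptors Napa (-0.02, adjusted p = 0.926, limma) and Napg (0.43, adjusted p = 0.148, limma) had groups that overlapped.

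Among the 13 synaptotagmins, 1 fell, 0 rose and 12 did not pass, and 8 of the 13 changes were positive. Syt1, Syt2 and Syt9 are fast calcium sensors for release. Syt2 (ENSMUSG00000026452, GRCm38 chr1:134646677-134762593, plus strand) was at 3.28, 3.25, 5.11 and 2.94 FPKM in saline replicates 1 to 4. In morphine replicates 1 to 4 it was at 0.44, 2.17, 0.84 and 1.11 FPKM. Each saline library was above each morphine library. The means were 3.65 ± 0.989 and 1.14 ± 0.740 FPKM (SD, n = 4 each). Syt2 fell by 1.16 ± 0.24 on the log2 scale (SE; limma, adjusted p = 0.0413), and at this low level the size depended on the pseudocount, -1.75 with 0.1 and -0.495 with 5. Its adjusted p stayed under 0.05 without saline replicate 4 (0.0405) or morphine replicate 2 (0.0395), and was between 0.0564 and 0.133 in the other 6 fits that left out 1 library. Syt1, at a level about that of Syt5 and Syt11, was at 253, 246, 186 and 242 FPKM with saline and 303, 246, 209 and 261 with morphine (0.13 ± 0.14, adjusted p = 0.647, limma). Its groups overlapped, and saline replicate 3 was the lowest library. Syt5, the synaptotagmin with the highest mean, was at 226 to 295 FPKM with saline and 239 to 325 with morphine (adjusted p = 0.378, limma). The order of Syt5, Syt1 and Syt11 was not stable, since each was above the next in 5 of 8 libraries.

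With the pseudocount of 1, the highest positive change among the members was that of Syt10, a synaptotagmin linked to regulated secretion of growth factor. It was at 4.34, 4.85, 4.07 and 13.7 FPKM with saline and 15.1, 17.1, 14.2 and 34.7 with morphine. The groups did not overlap, but replicate 4 was the highest in both. The change of 1.52 ± 0.36 did not pass (adjusted p = 0.0566, limma), and without saline replicate 4 it was 1.88 and passed (adjusted p = 0.0129). Syt6, a relative of Syt10, was at 9.63, 7.28, 47.9 and 15.8 FPKM with saline and 4.02, 9.94, 4.8 and 23.8 with morphine. Saline replicate 3 was the highest, the groups overlapped, and the adjusted p was 0.489 (limma). Syt9, Syt13 and Syt17 were described after their values were seen, and all had groups that did not overlap, higher with morphine. Syt17 was at 36.1, 44.9, 10.4 and 40.7 FPKM with saline and 64.2 to 79.4 with morphine (1.31 ± 0.37, adjusted p = 0.0885, limma). Syt13 was at 48.8, 52.2, 21.6 and 53.8 FPKM with saline and 66.2 to 79.3 with morphine (0.82 ± 0.25, adjusted p = 0.102, limma). In both, saline replicate 3 was the lowest library by a wide margin. Without it, Syt13 was at 0.52 (adjusted p = 0.0324, limma) and Syt17 at 0.84 (adjusted p = 0.00964, limma). With the striatal covariate the signs turned, to -0.355 for Syt13 and -0.612 for Syt17. Syt9 was at 0.38 to 1.14 FPKM with saline and 1.37 to 2.89 with morphine (adjusted p = 0.0924, limma).

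**Figure D3:**
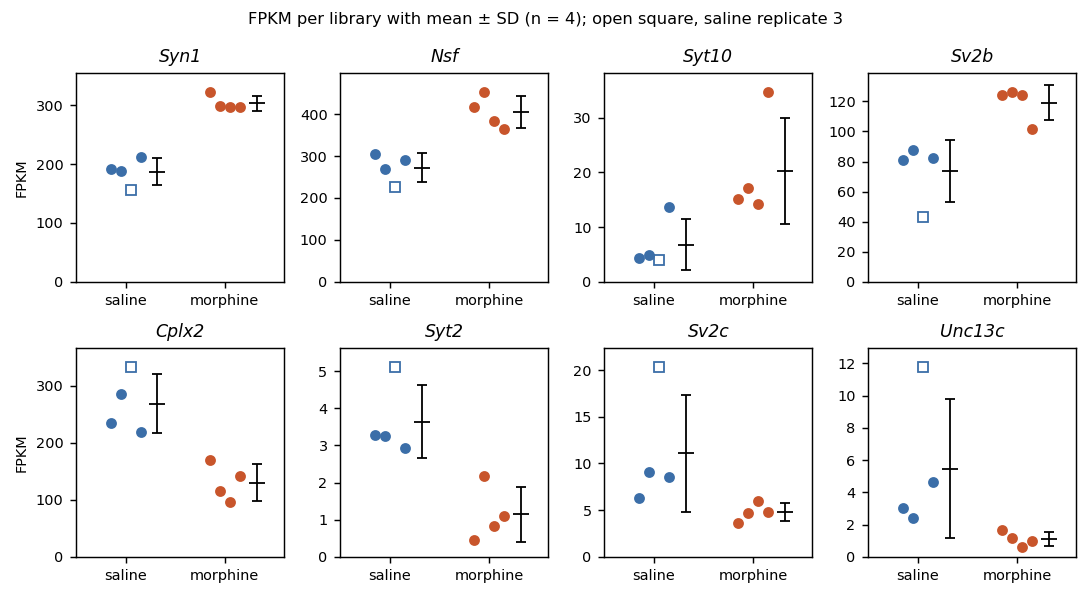
FPKM of 8 members in each library (y axis from 0; 1 point per library, an open square for saline replicate 3; bars are mean ± SD, n = 4). Syn1, Nsf, Cplx2 and Syt2 passed the test, and in all 8 genes the saline and morphine libraries do not overlap.

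SV2 proteins are vesicle membrane glycoproteins that bear on priming and bind botulinum toxin. Sv2b was at 80.8, 87.7, 43.0 and 82.5 FPKM with saline and 125, 126, 124 and 102 with morphine. The groups did not overlap, and the change of 0.74 ± 0.20 did not pass (adjusted p = 0.0849, limma). Without saline replicate 3 it was 0.50 and passed (adjusted p = 0.0421, limma), and with the striatal covariate it was -0.19. Sv2c, the paralog best known in the basal ganglia, was at 6.33, 9.04, 20.3 and 8.59 FPKM with saline and 3.59, 4.68, 6.01 and 4.84 with morphine. All saline values were above all morphine values, and the change was -0.95 ± 0.29 (adjusted p = 0.102, limma). Sv2a, found at most synapses, was at 91.0 to 123 FPKM with saline and 98.8 to 120 with morphine, a change of 0.08 (adjusted p = 0.766, limma). The share of Sv2c in SV2 FPKM was 5.93% ± 3.34 with saline and 2.08% ± 0.443 with morphine (SD, n = 4).

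None of the 4 synaptophysins and synaptogyrins passed the test. Syp, the synaptophysin that marks synaptic vesicles, was at 677, 723, 513 and 699 FPKM with saline and 740.2, 773, 783 and 709 with morphine (0.21 ± 0.13, adjusted p = 0.385, limma), and the groups overlapped; 875 of its 5211 exonic bases are shared with the antisense gene Gm14703. Sypl, its widely expressed relative, was at 14.6 to 17.3 FPKM with saline and 13.7 to 16.3 with morphine (adjusted p = 0.607, limma). Syngr1, a synaptogyrin, was at 146, 142, 132 and 143 FPKM with saline and 190.4, 190.7, 168 and 165 with morphine. Its groups did not overlap, and its change of 0.34 ± 0.10 did not pass (adjusted p = 0.0885, limma). Syngr3 was at 137 to 176 FPKM with saline and 143 to 198 with morphine (adjusted p = 0.49, limma).

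At the active zone, none of the 8 RIM, Bassoon, Piccolo and Munc13 genes passed the test. Unc13c, the Munc13 paralog best known from cerebellar granule cells, was at 3.05, 2.42, 11.8 and 4.64 FPKM with saline and 1.65, 1.15, 0.63 and 0.98 with morphine. All saline libraries lay above all morphine libraries. The change of -1.44 ± 0.36 did not pass (adjusted p = 0.0621, limma), and without saline replicate 3 it was -1.05 and passed (adjusted p = 0.0386). With the striatal covariate it was 0.35. Unc13a, the main Munc13 of glutamatergic terminals, was at 10.8 to 18.4 FPKM with saline and 13.7 to 19.7 with morphine (0.13, adjusted p = 0.734, limma). Unc13a made up 58.8% ± 4.71 of Munc13 FPKM with saline and 72.3% ± 3.19 with morphine, and Unc13c 19.4% ± 12.5 and 4.64% ± 1.82 (SD, n = 4). Rims2, the most abundant RIM scaffold, was at 27.2 to 41.0 FPKM with saline and 24.8 to 32.7 with morphine (adjusted p = 0.502, limma). Bsn, encoding the scaffold Bassoon, was at 11.7 to 18.6 and 13.4 to 23.3 FPKM (adjusted p = 0.731, limma).

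Rab3 proteins are vesicle GTPases. Rab3a was at 668, 561, 549 and 577 FPKM with saline and 688, 601, 678 and 668 with morphine (0.16 ± 0.11, adjusted p = 0.437, limma), and its groups overlapped. Rab3b was at 90.3, 64.5, 144 and 88.1 FPKM with saline and 67.0, 77.2, 44.4 and 84.9 with morphine (-0.48 ± 0.25, adjusted p = 0.317, limma). Rab3b and Rab3c exchanged order, each above the other in 4 of 8 libraries. Rph3a, encoding the Rab3 effector rabphilin, was at 95.1, 93.5, 52.0 and 99.0 FPKM with saline and 106, 90.9, 109.8 and 68.6 with morphine (adjusted p = 0.718, limma). Doc2a, a calcium sensor for asynchronous or spontaneous release, was at 6.06 to 14.2 FPKM with saline and 12.2 to 28.1 with morphine (0.61 ± 0.29, adjusted p = 0.268, limma). Of its 2803 exonic bases, 1103 are shared with Ino80e on the other strand, and the protocol marks no strand.

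**Figure D4:**
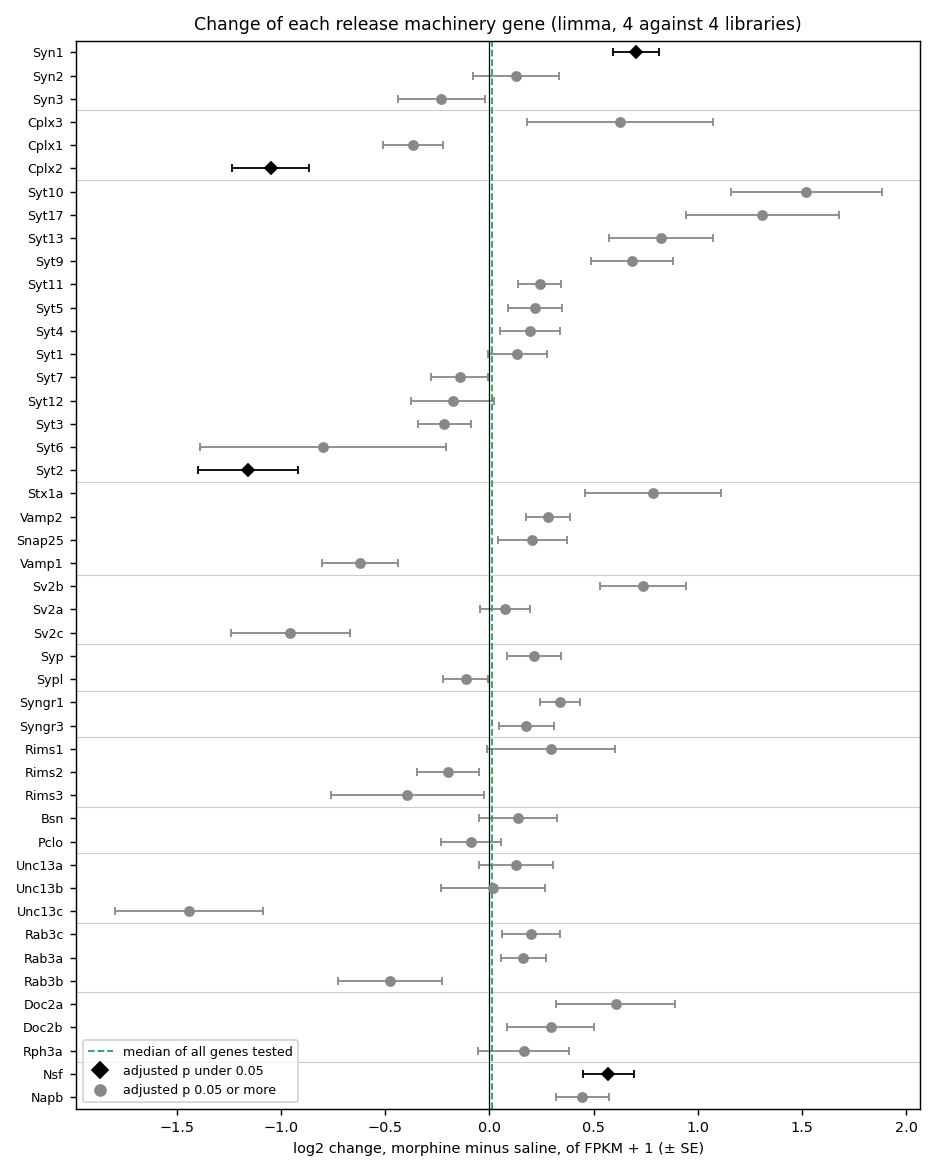
Change of each of the 46 genes (x axis, log2(FPKM + 1), morphine minus saline, ± SE from limma, 4 against 4 libraries), grouped by family; black diamonds have an adjusted p under 0.05 and the dashed line is the median of all genes tested, 0.01. Syn1 and Nsf lie to the right and Cplx2 and Syt2 to the left, while changes of other members range from -1.44 to 1.52.

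Whether paralogs changed unequally was asked from the log2 ratio of each of 21 pairs within a library, which cancels the scaling of that library apart from the added 1. An exact two-sided permutation test over the 70 assignments of the 8 libraries cannot give a p below 0.0286. In 8 of the 21 pairs the groups did not overlap, and these 8 reached that p. Some pairs share a gene, such as Syn1 or Sv2a, and the same count over other pairs of genes was not taken. Among single genes tested, 12.7% had groups that did not overlap, which is a share of genes and not of ratios. Of the genes in these 8 pairs, Syn1, Cplx2, Syt2, Syt10, Vamp2, Sv2c and Unc13c did not overlap by themselves. The ratios of their pairs are therefore not separate from the single-gene results. After adjustment over the 21 pairs the p of the 8 pairs was 0.075, so none passed. With that floor a pair could pass only if more pairs than these 8 lay apart, whatever the size of its own change. Relative to its partner, the first named gene was higher with morphine in Syn1/Syn3 (0.93), Cplx1/Cplx2 (0.68), Syt1/Syt2 (1.29), Sv2a/Sv2c (1.03), Syp/Sypl (0.33) and Unc13a/Unc13c (1.57), and lower in Syt6/Syt10 (-2.32) and Vamp1/Vamp2 (-0.90). In the complexins the log2 ratio was 0.55 ± 0.12 with saline and 1.23 ± 0.25 with morphine (SD, n = 4). In the synaptobrevins the ratio of Vamp1 to Vamp2 was -3.86 ± 0.34 with saline and -4.76 ± 0.36 with morphine. The groups overlapped in the other 13 pairs, among them Syn1/Syn2 (0.57, exact permutation p = 0.0857, adjusted 0.2), Sv2a/Sv2b (-0.66, 0.114, adjusted 0.218) and Syngr1/Syngr3 (0.16, 0.457, adjusted 0.6).

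**Figure D5:**
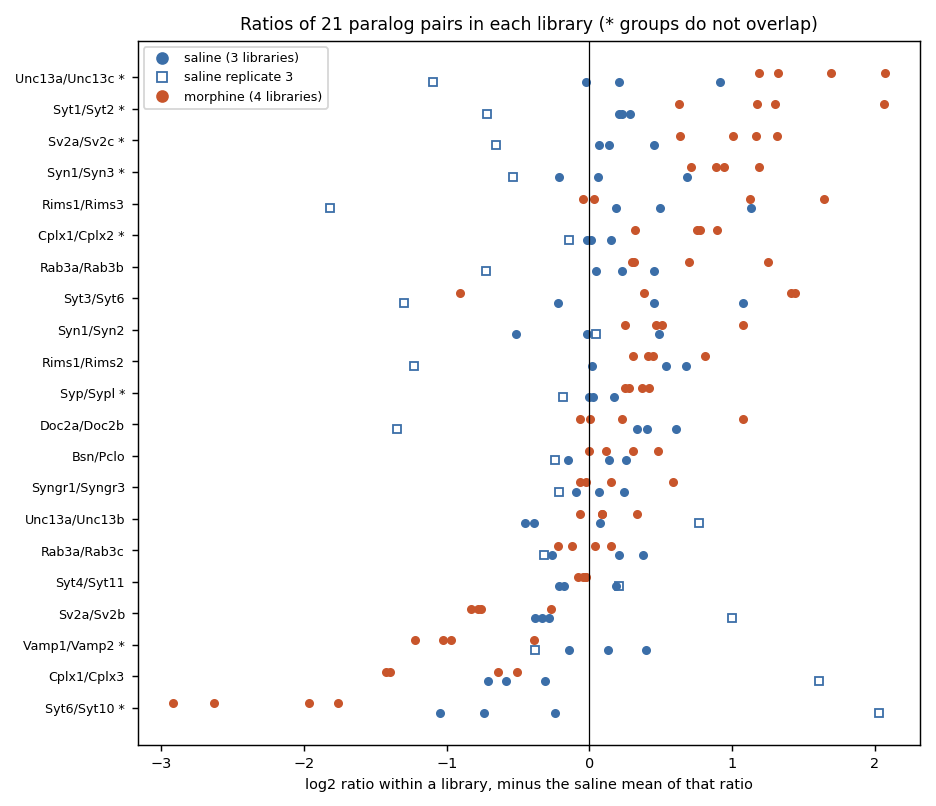
Log2 ratio of 21 paralog pairs in each library, minus the saline mean of that ratio (x axis; blue saline, open square saline replicate 3, orange morphine; an asterisk marks pairs whose groups do not overlap). In 8 pairs the groups lie apart. Among these, saline replicate 3 is the saline library nearest to the morphine libraries only in Vamp1/Vamp2. It is the farthest in Syn1/Syn3, Cplx1/Cplx2, Syt1/Syt2, Syt6/Syt10, Sv2a/Sv2c, Syp/Sypl and Unc13a/Unc13c.

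The rest of the pathway was read from a list of 94 genes outside the members. Of these 84 were tested, 9 fell below the filter on low values and 1 was not used here. Ap2a2, a subunit of the clathrin adaptor that retrieves vesicle membrane, rose, and 0 fell; this 1 gene is 1.19% of the 84, beside 2.52% of all genes tested. It was at 64.3, 59.7, 57.8 and 64.5 FPKM with saline and 88.8, 82.2, 83.3 and 88.6 with morphine, with no overlap (0.47 ± 0.09, adjusted p = 0.0319, limma). Its adjusted p stayed under 0.05 without saline replicate 3 or saline replicate 4 and was 0.0536 to 0.106 without any other single library. It was 0.0541 with no filter on low values and 0.508 with the striatal covariate. In limma without adjustment, 27 of the 84 (32.1%) had p under 0.05, beside 20.1% of all genes. Of the 84 changes, 57 (67.9%) were positive, beside 52.0%, and the median was 0.17. In 19 of the 84 (22.6%) the groups did not overlap, beside 12.7% of all genes. Slc17a7, the vesicular glutamate transporter of cortical terminals, was at 90.8, 98.0, 19.6 and 91.4 FPKM with saline and 139, 106, 109 and 106 with morphine. Its change was 0.84 ± 0.43 (adjusted p = 0.307, limma). Slc32a1, the vesicular GABA transporter, was at 16.7, 13.7, 40.6 and 18.8 FPKM with saline and 10.9, 10.9, 8.13 and 13.5 with morphine (-0.88 ± 0.29, adjusted p = 0.125, limma). In both the groups did not overlap, with Slc17a7 higher and Slc32a1 lower with morphine, and neither passed. Saline replicate 3 stood far from the other saline libraries in both, in opposite directions. Leaving out 1 library gave changes of 0.289 to 1.04 for Slc17a7 and -1.06 to -0.562 for Slc32a1.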

How the data were processed

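RNA from the nucleus accumbens was measured in 4 saline and 4 morphine libraries, made from total RNA by oligo-dT priming, template switching and PCR, per the labels' protocols, with no molecular identifiers or strand marking named. The values used are FPKM as deposited by the authors, in a single table with 1 column per library, per the file headers. The tools named in the submitters' processing notes were HISAT2, RSEM, StringTie 1.3.1, Bowtie2 2.2.8 and fastp 0.18.0, with the mouse build mm10; their roles and the annotation release are not stated there. Because FPKM is relative to library size, a gene class that takes more of a library lowers all other values. Depth is unknown: of 7479 low values, 20.7% were whole multiples within 0.1, and 20% is the share for evenly spread values, so no reads were recovered and no count model was used.

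Genes with at least 1 FPKM in at least 4 libraries (12536) were tested on log2(FPKM + 1) with limma 3.58.1 in R 4.3.3, with a mean-variance trend, two-sided, and Benjamini-Hochberg adjustment over all of them. On simulated data of 12536 genes with 200 changed, 75.8% of changes of log2 size 1 and 97.1% of size 2 were found. Of the calls, 4.72% and 5.91% were false. The noise was drawn for each gene alone, without a shift shared by many genes such as that of saline replicate 3. These rates therefore do not describe the 8 libraries. Paralog ratios were tested by exact permutation, adjusted over 21 pairs. Gene positions come from GENCODE M21, which held 22232 of the 22337 identifiers. The members, pairs and lists were chosen with earlier results of these data known. Full values are given for members past the threshold, the 6 with the highest mean, the highest and smallest-p member of each family, and both genes of pairs whose groups did not overlap; Syt9, Syt13, Syt17, Stx1a, Napb, Cplx3 and Syn2 were added after their values were seen. The alternatives were pseudocounts of 0.1 and 5, other filters, upper-quartile scaling, removal of mitochondrial genes, a replicate block, a striatal marker covariate, no trend, and leaving out each library. The settings for the pathway list, its genes, the added members and the count of pairs were chosen after seeing the data.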

Additional observations from a re-analysis of the deposited data

Results flagged for a closer look

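Within groups of 4 libraries, 76 groups were checked for a library set far from the other 3, and 16 were found. About 1 in 20 is the rate for independent groups of unselected genes. Many of these genes were named by their values and all share the same libraries, so the 16 cannot be set against that rate. The rate over all genes was not taken. Of the 16, 9 lay in saline replicate 3. It was low for Rph3a (52.04 FPKM, others 93.47 to 98.99), Snap25 (776.87, others 1161.22 to 1206.97), Sv2b (43.0, others 80.84 to 87.66), Syt1 (186.37, others 241.71 to 252.78), Syt9 (0.38, others 1.03 to 1.14), Syt13 (21.62, others 48.77 to 53.79) and Slc17a7 (19.61, others 90.82 to 98.02). It was high for Sv2a (123.28, others 90.99 to 96.13) and Syt2 (5.11, others 2.94 to 3.28). Saline replicate 4 was high for Syt10 (13.73 FPKM, others 4.07 to 4.85).

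Among the morphine libraries, replicate 1 was high for Syn1 (322.27 FPKM, others 296.27 to 298.09) and Slc17a7 (139.48, others 105.76 to 109.48). Replicate 2 was low for Syngr3 (143.35 FPKM, others 190.16 to 198.17). Replicate 3 was high for Doc2a (28.08 FPKM, others 12.21 to 14.75). Replicate 4 was low for Sv2b (101.88 FPKM, others 124.35 to 126.13) and high for Syt10 (34.68, others 14.23 to 17.14).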

How the results depend on the processing

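Of the values recomputed under each setting, 858 kept their direction and side of the threshold or moved within the spread of the libraries, 45 lost their call, 7 gained one, 32 moved further and 33 changed sign. With no filter on low values, 17 genes, 0 members and 0 pathway genes were called, and 3204, 17 and 27 had an unadjusted p under 0.05 in limma. With the striatal marker mean as a covariate, 3 genes, 0 members and 0 pathway genes were called (1255, 12 and 6 unadjusted), and the median change of the members was 0.0132. Called pathway genes numbered 2 with a pseudocount of 0.1 and 3 without mitochondrial genes. Leaving out 1 library gave 0 to 450 genes, 0 to 6 members, 0 to 2 pathway genes, 8 to 9 pairs apart and a median of 0.0783 to 0.202. The count was 0 when saline replicate 2 was left out, and when either replicate 3 or 4 of the morphine group was. The cause of these shifts was not tested. Depth is unknown, so its limit on low genes such as Syt2 and Syt9 cannot be stated.

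With the replicate block, 5 genes, 1 member (Syt10, adjusted p = 0.0234) and 0 pathway genes were called, and 2352, 17 and 26 had an unadjusted p under 0.05 in limma. The numbers were not taken to pair the libraries: deviations of same-numbered libraries correlated at -0.205 to 0.052, and 0 of 4 saline libraries correlated best with their own number.

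With the covariate, changes of the opposite sign were -0.187 for Bsn, -0.391 for Doc2a, 0.46 for Rab3b, 0.172 for Rims2, -0.646 for Rph3a, -0.323 for Snap25, -0.19 for Sv2b, 0.186 for Sv2c, 0.204 for Syn3, -0.242 for Syp, -0.18 for Syt1, 1.21 for Syt6, 0.35 for Unc13c, -0.032 for Syt9, -0.355 for Syt13, -0.612 for Syt17, -0.827 for Stx1a, -0.0203 for Napb, -1.16 for Cplx3, -0.423 for Syn2, -1.27 for Slc17a7 and 0.464 for Slc32a1. Leaving out 1 library gave changes of -0.0198 to 0.235 for Bsn, -0.0519 to 0.307 for Rph3a and -0.0374 to 0.232 for Unc13a. It gave ratio changes of -0.0386 to 0.366 for Unc13a/Unc13b, -0.141 to 0.0887 for Rab3a/Rab3c, -0.116 to 0.0231 for Syt4/Syt11 and -0.138 to 0.514 for Doc2a/Doc2b.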
